A study of Mus musculus with 4 samples.

Results

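The genes described here were 10 members of the Arf GTPase system: the exchange factors Psd, Psd2, Psd3, Iqsec1, Iqsec2 and Iqsec3, and the GTPases Arf1, Arf3, Arf4 and Arf5. They were picked by the gene name that the table gives each polyA site. The 10 genes held 14 of the 9297 sites and 167 of the 34672 tags, out of 7202 gene names. A tag is a sequenced RNA fragment, and a polyA site is the place where an mRNA is cut and given its poly(A) tail.

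The samples were 4 cTag-PAPERCLIP libraries of CA1 neuropil, the layer of the hippocampus that lies beside the pyramidal cell bodies and holds their dendrites along with axons and glia. The mice were C57BL/6 animals of the genotype Camk2a-Cre x Pabpc1-cTag, in which Cre turns on a tag in the native gene of the poly(A)-binding protein Pabpc1, so the tag depends on where Camk2a-Cre is active. Slices were crosslinked with ultraviolet light and the neuropil was dissected out by hand. RNA bound to tagged Pabpc1 was then cloned. All 4 libraries had the same genotype, tissue and handling in the labels and formed 1 group, so levels are given with their spread over libraries, and no condition was compared. Adult mice were pooled for each replicate, in numbers that differed, and the labels do not say how the animals were divided, so the spread may be partly technical. Fewer contributing dendrites and less RNA per dendrite cannot be told apart in such tissue.

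Arf proteins are small GTPases that recruit coats and lipid enzymes to membranes when they carry GTP, and release them when GTP is hydrolysed. Exchange factors load the GTP through a Sec7 domain, and GTPase-activating proteins (GAPs) end the signal. The Psd family (also called EFA6) and the Iqsec family (also called BRAG) are exchange factors known at the postsynaptic density, where Arf signalling bears on receptor traffic and on the actin of dendritic spines.

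The 7 sequences that follow show the mRNA around the leading site of each member with at least 5 tags, because most tags of these genes came from these ends. Each is 30 bases of the mm10 (GRCm38) genome, read 5′ to 3′ on the strand of the gene, from 15 bases before the deposited position to 14 after it, except for Arf3, where the window starts 3 bases before the position. Capitals mark a polyA signal, AATAAA or ATTAAA, or the related CATAAA in Iqsec2. Iqsec3 had none of these in its window.
Psd (chr19:46312091-46312120, minus strand, 84 tags): agcctccaccctcATTAAAactgctctgaa
Iqsec2 (chrX:152225197-152225226, plus strand, 27 tags): agaatgtatatttgatgcctCATAAAagac
Psd3 (chr8:67689085-67689114, minus strand, 15 tags): agaaagaAATAAAtacaacaaatttcaatc
Arf1 (chr11:59211422-59211451, minus strand, 9 tags): tgtaattatagctgttagAATAAAgtctct
Arf3 (chr15:98737639-98737668, minus strand, 9 tags): gcaatgactgtgccctggttggaaATTAAA
Iqsec3 (chr6:121372938-121372967, minus strand, 8 tags): agagttttagagattctattgaactgtgtc
Arf5 (chr6:28426560-28426589, plus strand, 5 tags): acgtggaactggatattgagtAATAAAttt

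The 4 libraries held between 5947 and 16017 tags, and library 1 was the largest. In that library 25.2% of tags fell at 1 site, named Hdac8. Shares below are percentages of all tags of a library, and the upper limit left by a count of 0 (3 tags of the total) was 0.0187%, 0.0454%, 0.0504% and 0.0492% in libraries 1 to 4. These limits, the 95% Wilson intervals and the tests on tags cover counting error only. They treat tags as independent molecules, which PCR copies are not, and a called difference between libraries is set against tag sampling alone. In library 2, 18.7% of tags fell at sites with a GC content over 50% (taken over 100 bases on either side), against 9.67% to 11% in the other libraries. Of the 7 pyramidal neuron markers examined, 5 had tags (65 in all, 0.121% to 0.225% of a library), while Camk2a and Slc17a7 had no tags listed. The 6 astrocyte markers summed to 0.082% to 0.262% of a library, the 5 oligodendrocyte markers to 0.131% to 0.53%, and 4 of 7 interneuron markers with tags to 0.0303% to 0.246%. Of 5 microglial markers 1 had tags, 2 in all.

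Together the 10 genes took 0.478% ± 0.342 of the tags (SD, n = 4). They had 74, 63, 9 and 21 tags in libraries 1 to 4, or 0.462%, 0.953%, 0.151% and 0.344%. Library 2 was the highest and library 3 the lowest, and the mean without library 2 was 0.319%. The 6 exchange factors held 140 of the 167 tags (83.8%), or 0.394% ± 0.35 of a library, and the 4 Arf GTPases held 27, or 0.0842% ± 0.0222. Without library 2 the mean of the exchange factors was 0.232%. Psd alone had 84 tags, against 56 at the other 5 exchange factors. Without Psd the other 9 members had 35, 24, 7 and 17 tags in libraries 1 to 4, and their share was 0.245% ± 0.103.

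**Figure D1:**
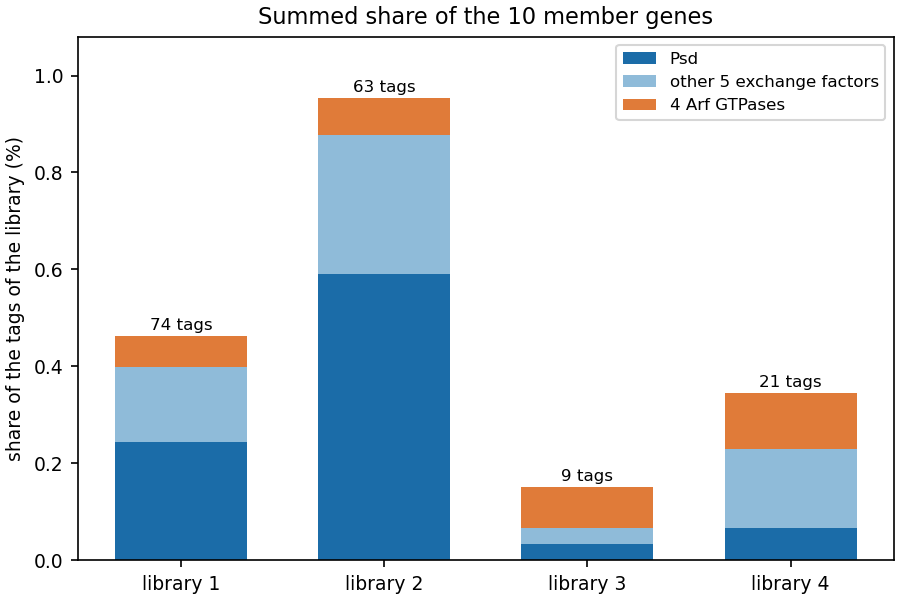
Stacked bars give the share of the tags of each library (%) at Psd, at the other 5 exchange factors and at the 4 Arf GTPases, with the number of tags above each bar. The Arf segment runs from 0.0624% to 0.115%, and the Psd segment from 0.0336% to 0.59%.

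Among the exchange factors, Psd had the highest level of the 10 genes and ranked at number 30 of the 7202 gene names by mean share. Its product activates Arf proteins at the plasma membrane and was named for its pleckstrin and Sec7 domains. All 84 tags lay at 1 site, with 39, 39, 2 and 4 tags in libraries 1 to 4, or 0.243%, 0.59%, 0.0336% and 0.0656% (mean 0.233% ± 0.255, SD, n = 4). The Wilson intervals of libraries 1 (0.178% to 0.333%) and 2 (0.432% to 0.806%) lay above those of libraries 3 (0.00922% to 0.123%) and 4 (0.0255% to 0.169%) and did not touch each other. With the same share everywhere, the library totals would give 38.8, 16, 14.4 and 14.8 tags. The share of Psd differed between libraries by more than the sampling of tags gives (exact multinomial test, Benjamini-Hochberg adjusted p = 6.6e-10 over 533 genes). Without library 2 the mean was 0.114%. Psd was called in all 4 repeats of the test that left out 1 library.

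The second member by level was Iqsec2, an X-linked exchange factor of excitatory synapses whose loss in people causes intellectual disability. It had 27 tags at 1 site, with 10, 13, 1 and 3 in libraries 1 to 4, or 0.0624%, 0.197%, 0.0168% and 0.0492% (mean 0.0813% ± 0.0793, SD, n = 4). Library 2 stood highest and library 3 lowest, and the interval of library 2 (0.115% to 0.336%) overlapped that of library 4 (0.0167% to 0.145%), met the upper end of library 1 (0.0339% to 0.115%) and lay above that of library 3 (0.00297% to 0.0952%). The difference between libraries passed the exact multinomial test (adjusted p = 0.0109 over 533 genes), but not without library 2 (adjusted p = 0.639, exact test), where the mean was 0.0428%. The place of Iqsec2 above Psd3 rested on library 2, without which the mean of Psd3 was 0.0449%.

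Psd3, a brain-expressed relative of Psd, had 16 tags at 2 sites. Libraries 1 to 4 gave 11, 1, 1 and 3 tags, or 0.0687%, 0.0151%, 0.0168% and 0.0492% (mean 0.0375% ± 0.0261, SD, n = 4). Here library 1 was highest and library 2 lowest, the reverse order of what Psd and Iqsec2 showed between these libraries, and the spread did not pass the exact test (adjusted p = 0.406). The other relative, Psd2, had 1 tag, in library 1, and none in libraries 2 to 4.

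Iqsec3, an exchange factor found at inhibitory synapses with the scaffold gephyrin, had 8 tags at 1 site. Its counts of 3, 4, 0 and 1 came to 0.0187%, 0.0605%, 0% and 0.0164% (mean 0.0239% ± 0.0258, SD, n = 4), with library 2 the highest and a mean of 0.0117% without it. Iqsec1, which acts on Arf6 in the endocytosis of AMPA receptors, had 4 tags at 2 sites, 1 in library 2 and 3 in library 4, and its mean share was 0.0161% ± 0.0232, or 0.00504% without library 4. Both had under 10 tags. With the minimum set at 5 tags, Iqsec3 was tested and did not pass (adjusted p = 0.348, exact test over 1408 genes, of which 20% were called).

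Of the GTPases, Arf1, which recruits the COPI coat to Golgi membranes, had 9 tags at 1 site, with 3, 0, 2 and 4 in libraries 1 to 4, or 0.0187%, 0%, 0.0336% and 0.0656% (mean 0.0295% ± 0.0277, SD, n = 4). Library 4 was highest for Arf1 and library 2 had none, so its order over libraries was not that of Psd. Its mean was 0.0175% without library 4. Arf3, a close relative of Arf1 that is abundant in brain, had 10 tags at 2 sites, with 5, 4, 1 and 0, or 0.0312%, 0.0605%, 0.0168% and 0% (mean 0.0271% ± 0.0257). The spread of Arf3 did not pass the exact test (adjusted p = 0.334), and its mean was 0.016% without library 2. The class II proteins Arf5 and Arf4, which act in the early secretory pathway, had 5 and 3 tags. Arf5 was found in every library (1, 1, 1 and 2 tags; mean 0.0177% ± 0.0111), and Arf4 in libraries 1, 3 and 4 with 1 tag each (mean 0.00986% ± 0.00819). Arf1 and Arf5 were tested only with the minimum at 5 tags and did not pass (exact test, adjusted p = 0.236 and 0.466).

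**Figure D2:**
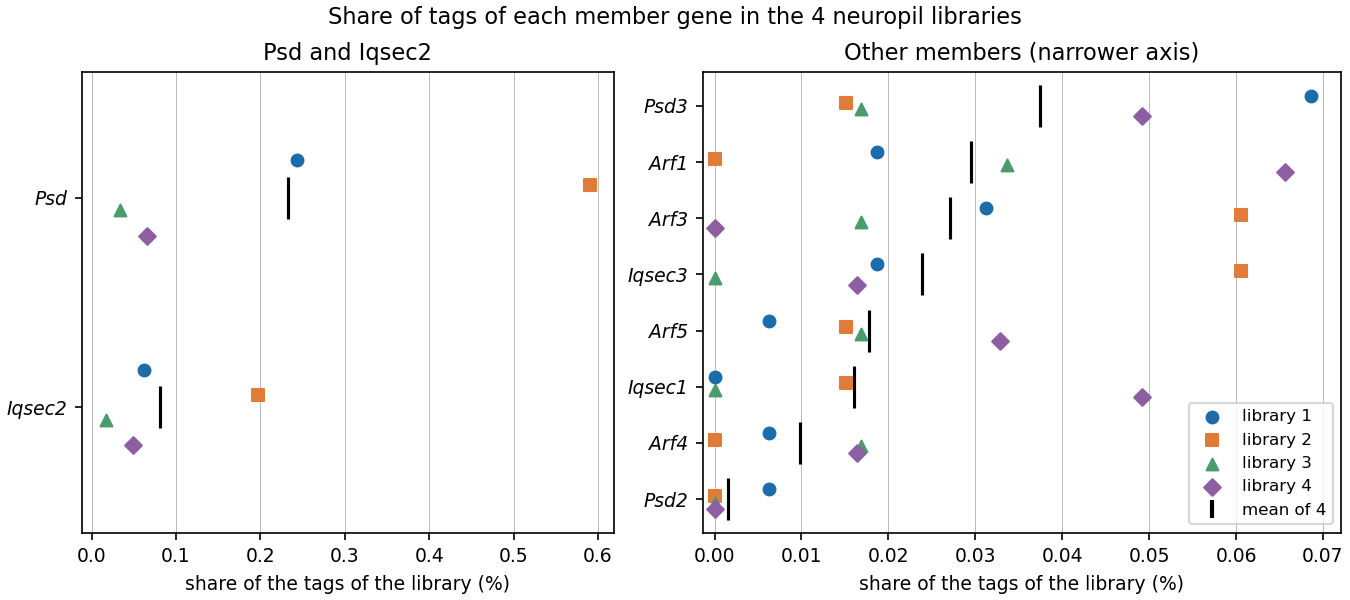
Points give the share of the tags of each library (%) for each member, by library, and black bars the mean of the 4 libraries. The right panel has a narrower axis, and the points of Psd in libraries 1 and 2 (0.243% and 0.59%) lie above every value of the other 9 genes.

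By mean share the order was Psd, Iqsec2, Psd3, Arf1, Arf3, Iqsec3, Arf5, Iqsec1, Arf4 and Psd2. A tag marks a 3′ end, so these shares are not scaled by transcript length. Psd was above Iqsec2 in 4 of 4 libraries, by 0.152% ± 0.179 of a library on the scale of shares. The exact sign-flip permutation test over libraries gave p = 0.13, the smallest that 4 libraries allow. No other pair of neighbours kept 1 order in all libraries, with exact sign-flip p from 0.5 to 1, and the ranges over libraries overlapped for all 9 pairs.

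The question of whether the exchange factors and the Arf GTPases among the members contribute alike was taken within libraries, where depth cancels. The log2 ratio of summed tags at the 6 exchange factors to those at the 4 Arf GTPases was 2.62, 3.41, -0.29 and 0.95 in libraries 1 to 4, with a mean of 1.67 ± 1.66 (SD, n = 4). It was above 0 in 3 of 4 libraries and below in library 3, where 4 tags stood against 5, and did not pass the exact sign-flip permutation test (p = 0.25, smallest possible 0.13). The mean was 1.09 without library 2 and 2.33 without library 3. Between the exchange factor families, the log2 ratio of Iqsec to Psd tags was -1.93, -1.13, -1.22 and 0, with a mean of -1.07 ± 0.80 (SD, n = 4). The Psd family was thus ahead in libraries 1 to 3 and level with 7 tags each in library 4 (exact sign-flip p = 0.25). Psd held 84 of the 101 tags of its family, and without it Psd2 and Psd3 had 12, 1, 1 and 3 tags against 13, 18, 1 and 7 for the Iqsec genes, ahead in no library.

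Of the 4 members with at least 10 tags, 2 (Psd and Iqsec2) differed in share between libraries beyond the sampling of tags. Over all genes tested, 215 of 533 (40.3%) were called by the same rule, so such a difference was common in these libraries. Psd and Iqsec2 were also the members with at least 20 tags, and at that minimum 147 of 211 genes (69.7%) were called. To compare patterns, each gene's shares were scaled to sum to 100% over the 4 libraries. Psd had 26.1%, 63.3%, 3.61% and 7.03% of its scaled tags in libraries 1 to 4, and Iqsec2 19.2%, 60.5%, 5.17% and 15.1%. The medians over the 533 genes were 19.7%, 23%, 19% and 23.8%. Arf3 also had most of its scaled tags in library 2 (28.8%, 55.8%, 15.5% and 0%), while Psd3 had most in library 1 (45.8%, 10.1%, 11.2% and 32.8%).

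**Figure D3:**
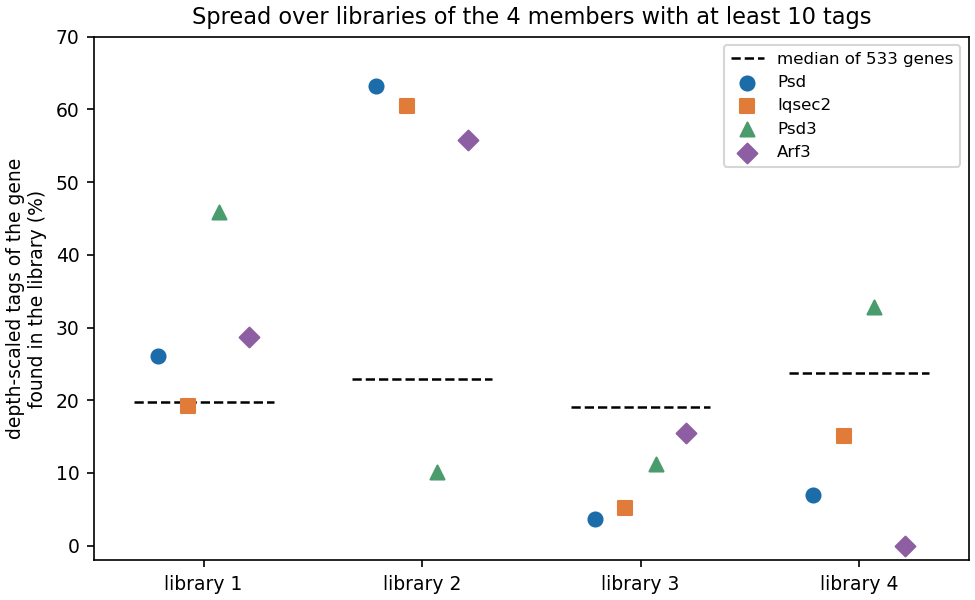
Points give the percentage of a gene's depth-scaled tags found in each library, for the 4 members with at least 10 tags, and dashed bars the median over the 533 genes tested. Psd, Iqsec2 and Arf3 lie above the dashed bar in library 2 (55.8% to 63.3% against 23%) and Psd3 lies below it.

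The sites of Psd and Iqsec2 were the only member sites with a GC content over 50% (59.2% and 52.2%, against 24.4% to 49.8% for the other 12), and library 2 was the one with the largest share of its tags at such sites. The oligodendrocyte markers were also highest in library 2 (0.281%, 0.53%, 0.185% and 0.131% in libraries 1 to 4), while the pyramidal neuron markers (0.225%, 0.121%, 0.135% and 0.213%) and the interneuron markers (0.05%, 0.0303%, 0.135% and 0.246%) were lowest there. Astrocyte markers were highest in library 1 (0.262%, 0.136%, 0.118% and 0.082%). The part of any of these in the spread of Psd and Iqsec2 was not tested. Among the 209 genes outside the 10 members with at least 20 tags, those with the most similar scaled pattern to Psd were Kif5a, Ppp1r16b and Shank1, and to Iqsec2 Camta2, Ctxn1 and Nfix. Likeness was measured as the total variation distance over 4 libraries (0 for identical patterns, 1 for no overlap), which was 0.0483 to 0.0525 for the first 3 genes and 0.0193 to 0.0341 for the others. Kif5a, a kinesin heavy chain, had 162, 139, 12 and 12 tags, and Camta2 had 10, 12, 1 and 3.

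Since the study asks which 3′UTRs are present in dendrites, the position of each member site was read against the GENCODE vM21 annotation. Of the 14 sites, 12 (85.7%) lay in a 3′UTR. Over all 9294 sites on assembled chromosomes, 76.5% lay in a 3′UTR of any gene. The Psd position lay 594 bases after the stop codon (chromosome 19, position 46312105), 18 bases short of an annotated transcript end. The Iqsec2 position lay 1325 to 2277 bases after the stop codon, by transcript (chromosome X, position 152225212), 23 bases short of an annotated end. Both thus lay close to ends that the annotation already holds, and the deposited position need not be the cut itself. The Psd site lies within the gene Nfkb2 on the opposite strand and the Arf5 site within Gcc1, and both are read here on the strand given for the site.

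The longest 3′UTR was that of Psd3, whose leading site (chromosome 8, position 67689099) lay 7873 bases after the stop codon with 15 tags in 4 libraries. A second site (position 67691806), 5166 bases after the stop codon, had 1 tag in library 4. The Iqsec3 site (chromosome 6, position 121372952) lay 3118 to 6749 bases after the stop codon. Shorter distances from the stop codon were those of Arf5 (417 bases, chromosome 6, position 28426575) and Arf1 (1098 bases, chromosome 11, position 59211436). With the shortest annotated 3′UTR taken where transcripts differ, the median distance from the stop codon was 1348 bases over the 12 member sites and 959 bases over the 7109 3′UTR sites (quartiles 386 and 2035). With the longest, the median of the 12 was 2165 bases.

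Arf3 had 9 tags, in libraries 1 and 2, at a site 2668 bases after the stop codon (chromosome 15, position 98737665). This lay 39 bases from an end in RefSeq and 1031 bases short of the end in vM21. A further tag in library 3 fell 218 bases past the vM21 end (position 98736416), in the stretch between genes, and was the only member-named site outside the vM21 gene of its name. Arf4 had 2 tags 836 bases after a stop codon (chromosome 14, position 26656818) and 1 in an intron (position 26658502). Iqsec1 had 3 tags, all in library 4, at 1371 to 2845 bases after the stop codon (chromosome 6, position 90659610), and 1 tag in library 2 at 579 to 2053 bases (position 90660402). The single Psd2 tag lay 1837 bases after the stop codon on chromosome 18.

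**Figure D4:**
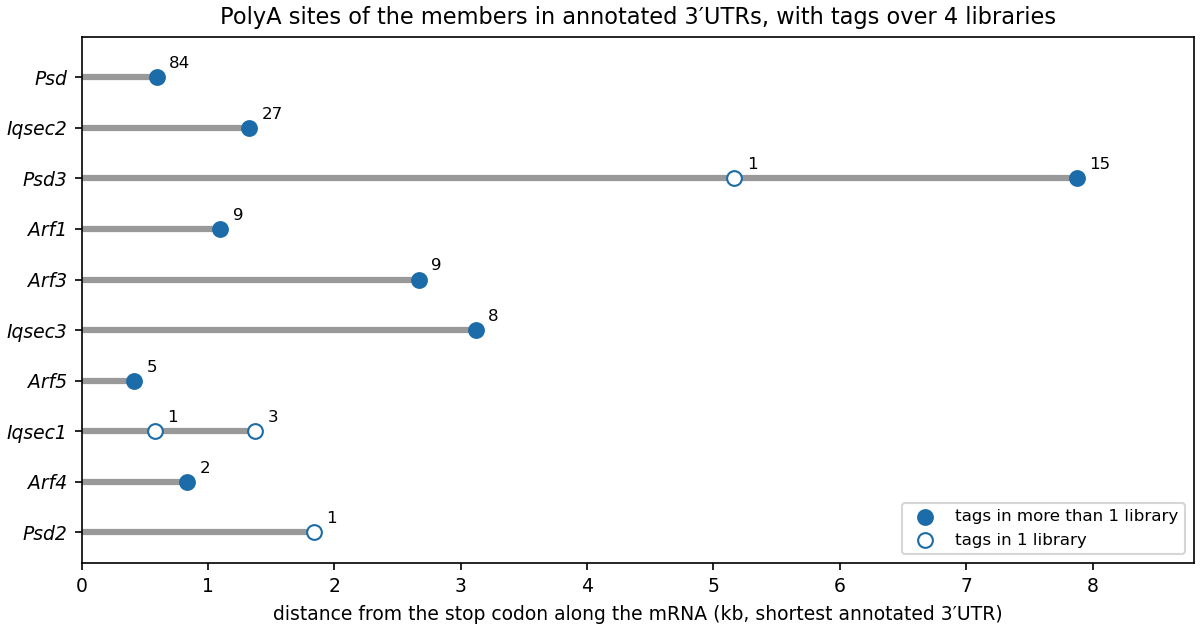
Each point is a member site in an annotated 3′UTR, placed by its distance from the stop codon along the mRNA (kb) with its tags over 4 libraries, and filled where more than 1 library had tags. Psd3 extends farthest (7873 bases, 15 tags), and the site of Psd, with the most tags (84), lies at 594 bases.

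The 4 genes with more than 1 site (Psd3, Arf3, Arf4 and Iqsec1) had 20 tags at their most distal and 13 at their most proximal sites. The distal counts were 12, 1, 2 and 5 and the proximal counts 5, 5, 1 and 2 in libraries 1 to 4. Distal tags led in libraries 1, 3 and 4 and proximal tags in library 2, with log2 ratios of 1.18, -1.87, 0.74 and 1.14 (mean 0.30 ± 1.46, SD, n = 4, exact sign-flip p = 0.75). Psd3 alone gave 15 of the distal tags and 1 of the proximal. The other 3 genes had 5 distal (1, 0, 1 and 3) against 12 proximal tags (5, 5, 1 and 1), and the distal sites of Arf3 and Arf4 were the ones between genes and in an intron. The sign turned without library 4 (-1.68), where Arf3 and Arf4 were left. Site usage could be tested in 2 members, and neither passed (Fisher's exact test, adjusted p = 0.5 for Arf3 and 0.848 for Psd3, with 0 of 2 also at an unadjusted p under 0.05). Over all genes, 14 of 255 (5.49%) were called.

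AATAAA or ATTAAA stood within 50 bases on either side of 11 of the 14 member sites (78.6%, Wilson interval 52.4% to 92.4%), and of 78.1% of all sites. In 2 of the 14 (Psd3 and Iqsec1) the whole signal lay upstream of the position in the table, against 27.7% of all sites. In the sequences printed above, the signal of Psd starts 2 bases before the position and that of Psd3 8 bases before it, while those of Arf1, Arf5 and Arf3 start 3, 6 and 21 bases after it. The positions of Psd, Psd3, Arf1 and Arf5 lay 18, 10, 22 and 27 bases short of an annotated transcript end. A signal after the position is thus not shown to lie after the cut. Of the 3 member sites with neither signal, Iqsec2 had CATAAA starting 5 bases after the position (4.64% of all sites had CATAAA in the same window), and Iqsec3 and the proximal site of Psd3 had none of the 3. Searches were made on the strand of the gene, and a match is a description of the letters only. Tags came from more than 1 library at 8 of the 14 sites, all of them in 3′UTRs. Over all sites this held for 3182 of 9294, of which 88.6% lay in a 3′UTR.

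Of 47 other genes of the Arf system, 25 had tags, 189 in all (84, 66, 15 and 24 in libraries 1 to 4), and 4 had at least 10. GAPs carried most of them, 148 tags at 13 of 23 genes. Git1, a GAP and synaptic scaffold, had 60 tags (36, 21, 2 and 1; 0.148% ± 0.147 of a library, SD, n = 4), below Psd and above Iqsec2 by mean share. Agap2, a GAP that also binds signalling kinases, had 47 (16, 23, 3 and 5; 0.145% ± 0.137). Both had more tags in each of libraries 1 and 2 than in 3 or 4, and both differed between libraries in the exact multinomial test (adjusted p = 5.14e-06 and 0.00023). As shares, libraries 1 to 4 gave 0.225%, 0.318%, 0.0336% and 0.0164% for Git1. Those of Agap2 were 0.0999%, 0.348%, 0.0505% and 0.082%, so library 1 stood close to library 4. Without library 2 the mean share was 0.0916% for Git1 and 0.0774% for Agap2, and Agap2 was no longer called (exact test, adjusted p = 0.706).

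The GAP Agap3 (16 tags, adjusted p = 0.621, exact test) and the lipid kinase Pip5k1c, an Arf effector (24 tags, 11, 9, 3 and 1, adjusted p = 0.154, exact test), did not pass. The 12 effectors had 31 tags at 6 genes, and the 10 other exchange factors, cytohesins and Golgi factors among them, had 9 tags at 5 genes. Arf2 had 1 tag, and Arf6, on which the Psd and Iqsec families are best known to act, had no tags listed. Genes were found by the deposited name, so Arf6 tags under another name or outside the sites counted would be missed. In this list 2 of the 4 genes tested were called, beside 40.3% over all genes. With the minimum at 5 tags, 3 of 5 were called, beside 20% over all genes, the third being the GAP Adap1 with 9 tags (1, 7, 0 and 1, exact test, adjusted p = 0.00744). The other 4 had at least 10 tags. Over all genes calls were more common at higher minimums, 40.3% at 10 tags and 69.7% at 20, so the 20% is not a like background.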

How the data were processed

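cTag-PAPERCLIP tag counts at polyA sites of 4 CA1 neuropil libraries were analysed. The authors deposited whole-number tag counts, not normalized, for 1-base positions, each given a strand and gene name. The submitters' processing notes name cutadapt, Novoalign and mm10, and the study's methods name CTK for site calling. Per those methods, neuropil peaks entered later steps if at least 2 neuropil experiments held tags there, beside peaks from whole cells chosen by another rule, whereas the deposited counts include sites with tags in 1 library. The table's title says that the sites overlap peaks from Camk2a-expressing cells. The collapsing of duplicate tags and the handling of tags that match several places are not given in the sources used here, so the independence of tags and their placement in copied sequence are unknown. Neuropil and cell body samples were barcoded and pooled for cloning, per the methods.

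Each share is a percentage of all tags of 1 library (5947 to 16017 tags), with mean ± SD over libraries, 95% Wilson intervals and a limit of 3 tags for counts of 0. Genes with at least 10 tags were tested with an exact multinomial test against the library totals (chi-square above 150 tags). Site usage was tested with Fisher's exact test (R 4.3.3) in genes with at least 2 sites and 10 tags. Both were adjusted by Benjamini-Hochberg over all genes tested and called at an adjusted p under 0.05. Ratios within libraries used a pseudocount of 0.5 tags and an exact two-sided sign-flip permutation test. The tests of shares and of site usage were tried on simulated data first, and the sign-flip test was not. Sites were annotated with GENCODE vM21 and RefSeq on GRCm38, and none of the 9294 sites on assembled chromosomes lay past a chromosome end. AATAAA and ATTAAA were searched within 50 bases on either side, and GC content within 100 bases. Python 3.11.15, scipy 1.17.1, pandas 2.3.3, pysam 0.24.0 and edgeR 4.0.16 (TMMwsp size factors, as an alternative) were used.

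The members, the list of 47 other Arf genes and the marker lists were chosen with earlier results of these data known. The rule for named genes took the 10 members, the Arf genes with at least 10 tags, and the 3 genes most like each member with at least 20 tags. Arf2, Arf6, Adap1, Hdac8, Camk2a and Slc17a7 were named after their values were seen. Alternatives were other site and tag filters, gene names from vM21, other library totals, a pseudocount of 1, merged sites, an upstream signal window and leaving out each library.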

Additional observations from a re-analysis of the deposited data

Results flagged for a closer look

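The total of library 1 stood apart from the other 3. Its 16017 tags lay above 6609, 5947 and 6099, and the gap to the nearest of them took 0.934 of the whole range of the 4 totals. Of these tags, 25.2% came from 1 site named Hdac8. Library totals, member shares (Psd2 left out), summed shares and log2 ratios were examined in this way, 19 values in all, of which chance would single out about 0.95 (about 1 in 20 groups). None of the examined member values stood apart by this measure. Without the largest site of each library in the totals, the summed share of the 10 members was 0.528% ± 0.361 (SD, n = 4), against 0.478% ± 0.342 with it.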

How the results depend on the processing

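Of 21 recomputed log2 ratios 20 kept their sign. Their p-values cannot show stability, since the smallest sign-flip p that 4 or fewer libraries allow lies above the threshold. Of 17 recomputed counts of genes called, 12 stayed within 1.5 times the reported count. The summed share of the members ran from 0.319% to 0.587%. The mean log2 ratio of distal to proximal tags ran from -1.68 (without library 4) to 1.93 over the leave-one-out settings. The number of genes whose share differed between libraries was 129 to 179 with 1 library left out, against 215 with all 4. Without library 2 it was 129 of 383 tested, and with at least 20 and at least 5 tags per gene it was 147 of 211 (69.7%) and 282 of 1408. The number with different site usage was 4 to 11 with 1 library left out and 7 with vM21 names, against 14 of 255. It was 17 of 101 with at least 20 tags per gene. Fewer genes entered the tests with a library left out, and the cause was not tested further. With only the 50 bases upstream searched, 14.3% of member sites had a signal, against 78.6%. All 80 recomputed shares of single members moved by less than 1 SD, a limit that leaving out 1 of 4 libraries cannot break. It is also a wide limit, since the SD of Iqsec1 and of Psd2 exceeded the mean. With sites in more than 1 library the shares of both fell to 0. Of 34 recomputed adjusted p-values of members, 33 stayed on their side of the threshold, and that of Iqsec2 did not without library 2 (adjusted p = 0.639, exact test). The adjusted p of Psd ran from 8.38e-11 to 0.000984 over its settings of the exact test. Distal against proximal tags at sites in more than 1 library could not be computed, since no member had 2 such sites. No paired analysis was possible because there was only 1 group. Of the 6 members with 1 to 9 tags, Arf1, Iqsec3 and Arf5 were tested with the minimum at 5 tags and not called, and Iqsec1, Arf4 and Psd2 were tested in no setting.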
